A study of Triticum turgidum subsp. durum with 12 samples.

Results

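*GA20ox1* (TraesCS4A01G319100), *GA20ox-B2* (TraesCS3B01G439900), *GA20ox-A4* (TraesCS1A01G263600) and *GA20ox-B4* (TraesCS1B01G274200) encode gibberellin 20-oxidases of wheat. They were taken by identifier, and all 4 were among the 72120 genes of the deposited count table and the 190459 gene models of the TPM table. Their identifiers place them on chromosomes 4A, 3B, 1A and 1B of the IWGSC RefSeq v1.0 assembly. Their levels were compared between leaves of wild-type (WT), *phyB*-null and *phyC*-null genotypes of the tetraploid durum wheat 'Kronos' (*Triticum turgidum*, genomes A and B), with 4 biological replicates per genotype and 12 RNA-seq libraries in all. The study asked which leaf transcripts depend on the red light receptors phytochrome B and phytochrome C under short days (SD).

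Each mutant line brought together EMS-induced null alleles of both homeologs of its phytochrome gene, and had been backcrossed to Kronos (BC2F4 for *phyB*-null and BC2F5 for *phyC*-null). The WT was the Kronos parent of those backcrosses and served as the control of both mutants, so the 2 comparisons with WT share the same 4 libraries. As each mutant was a single selected line, other EMS mutations carried in it and the phytochrome mutation cannot be told apart. All plants carried *Ppd-A1a*, an allele that lowers sensitivity to day length, and grew in chambers with 8 h of light at 20 °C and 16 h of dark at 18 °C. RNA came from the youngest fully expanded leaf at 8 weeks, though another label names the third leaf. Apices were in early spike development in WT and vegetative in both mutants, so genotype and stage of the apex cannot be told apart.

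Gibberellins (GA) are hormones that promote stem and leaf elongation. GA 20-oxidase carries out successive oxidation steps late in the pathway, giving the precursors that GA 3-oxidase turns into active hormone, while GA 2-oxidase inactivates active forms and their precursors. In model plants, active GA lowers the transcripts of GA 20-oxidase genes and raises those of GA 2-oxidase genes, and the DELLA repressors, which GA removes, keep the 20-oxidase transcripts up.

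Library totals ranged from 37365465 to 58944135 uniquely mapped reads on genes. The 8 markers of green leaf (Rubisco small subunits, Rubisco activase and chlorophyll a-b binding proteins) summed to 7112 to 27604 TPM per library, mostly from the Rubisco small subunits, and 1 of them was at 0 in *phyB*-null replicate 4. Of these, the chlorophyll a-b binding genes TraesCS1B01G433300 (136 to 398 TPM in WT, 14.8 to 113 TPM in *phyB*-null) and TraesCS1B01G388300 (1.93 to 4.15 TPM and 0 to 1.24 TPM) had lower ranges in *phyB*-null. Rubisco activase TraesCS4B01G140200 went the other way, at 0.834 to 1.49 TPM in WT and 2.42 to 9.88 TPM in *phyB*-null. In *phyC*-null, TraesCS1B01G388300 was also below WT in every library, at 0.119 to 0.936 TPM. The *phyC*-null ranges of TraesCS1B01G433300 and TraesCS4B01G140200 overlapped with WT. The ranges of the remaining green leaf markers, the Rubisco small subunits among them, overlapped between WT and *phyB*-null. The 4 *knotted-1-like 1* homeobox genes, marks of meristem and stem, summed to 0.437 to 0.587 TPM in WT, 0.219 to 0.381 TPM in *phyB*-null and 0.447 to 0.691 TPM in *phyC*-null. Summed levels of 9 floral MADS-box genes were 11.2 to 16.2 TPM in WT, 15.0 to 21.7 TPM in *phyB*-null and 9.20 to 10.6 TPM in *phyC*-null, mostly from the PISTILLATA-like pair TraesCS1A01G264300 and TraesCS1B01G275000. Markers of each of these lists thus moved with genotype, and their part in the results below was not tested. In whole leaves, fewer cells of a type and less RNA per cell cannot be told apart. Reads that match homeologs or other near-identical copies equally well were left uncounted, and the strand setting of the counting is not stated, so antisense or overlapping transcripts may add to a gene's value.

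In WT leaves the 4 genes stood in the order *GA20ox1*, *GA20ox-A4*, *GA20ox-B2* and *GA20ox-B4*, at means of 19.5, 2.01, 0.266 and 0.0825 TPM, a unit that corrects for gene length. The ranges of *GA20ox-B2* and *GA20ox-B4* overlapped, and those of the other neighbours in this order did not. In *phyB*-null the order was *GA20ox-B2*, *GA20ox1*, *GA20ox-B4* and *GA20ox-A4*, with 29.7, 19.3, 2.65 and 2.56 TPM, where only the last pair overlapped. In *phyC*-null it was *GA20ox1*, *GA20ox-A4*, *GA20ox-B2* and *GA20ox-B4*, with 26.7, 12.7, 0.842 and 0.156 TPM. There, *GA20ox1* overlapped with *GA20ox-A4* and *GA20ox-B2* with *GA20ox-B4*.

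**Figure D1:**
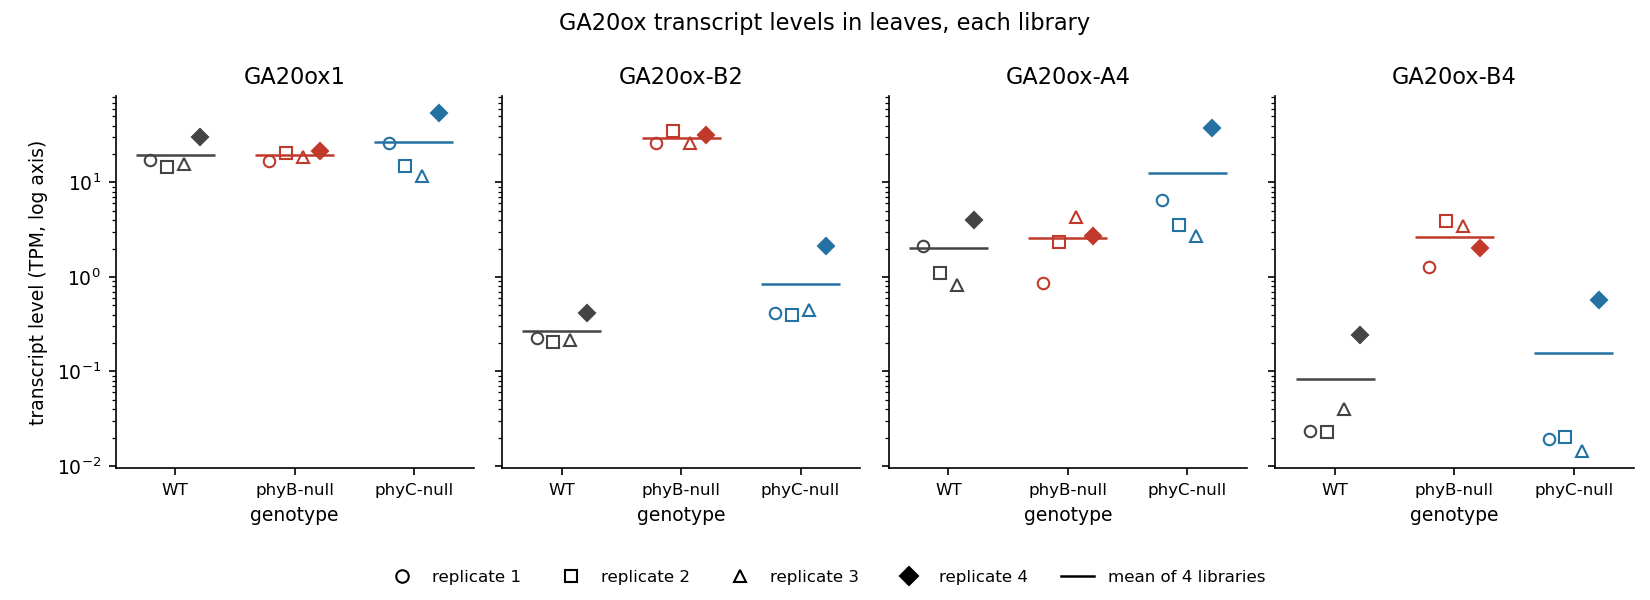
Transcript level (TPM, log axis) of the 4 GA 20-oxidase genes in each of the 12 libraries by genotype. Symbols mark the replicate number, with replicate 4 filled, and lines are means of 4 libraries. *GA20ox-B2* lies between 25.8 and 35.2 TPM in *phyB*-null and at or below 2.11 TPM elsewhere, and replicate 4 is the highest of its genotype in WT and *phyC*-null for all 4 genes.

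*GA20ox-B2* was the member that differed most between genotypes, being nearly silent in WT and abundant in *phyB*-null. Replicates 1 to 4 of WT had 0.227, 0.203, 0.217 and 0.417 TPM, from 10, 9, 11 and 21 reads. The *phyB*-null libraries had 25.8, 35.2, 26.2 and 31.6 TPM, from 1106 to 1796 reads. The *phyC*-null libraries had 0.414, 0.392, 0.450 and 2.11 TPM, from 20 to 121 reads. Every *phyB*-null library was thus far above every other library, while the WT and *phyC*-null ranges met only because WT replicate 4 reached the level of the lower *phyC*-null libraries.

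The differences were tested with edgeR's quasi-likelihood test on the counts of all genes, with Benjamini-Hochberg adjustment and a threshold of 0.01. Each log2 fold change has WT as the numerator, or *phyB*-null when the mutants are compared, so negative values against WT stand for more transcript in the mutant. *GA20ox-B2* in *phyB*-null exceeded WT 119-fold (log2 fold change -6.90, SE 0.27, adjusted p = 1.63e-08, edgeR), in 4 of 4 libraries. It also exceeded *phyC*-null 37.3-fold (5.22, SE 0.49, adjusted p = 0.000144, edgeR). Between WT and *phyC*-null, its log2 fold change of -1.68 (SE 0.56) did not pass (adjusted p = 0.157, edgeR). Without *phyC*-null replicate 4 that value was -0.82.

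*GA20ox-B4* had the lowest level in WT and *phyC*-null, at the edge of detection. WT replicates 1 to 4 had 1, 1, 2 and 12 reads, or 0.0232, 0.0231, 0.0402 and 0.244 TPM. The *phyC*-null libraries had 1, 1, 1 and 32 reads, or 0.0192, 0.0200, 0.0144 and 0.570 TPM. The *phyB*-null libraries had 53, 193, 175 and 104 reads, or 1.26, 3.87, 3.47 and 2.005 TPM. All *phyB*-null libraries were above all others, and 6 of the 8 remaining libraries held 1 or 2 reads.

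*GA20ox-B4* in *phyB*-null exceeded WT 33.2-fold (log2 fold change -5.05, SE 0.64, adjusted p = 0.000143, edgeR). Without WT replicate 4, which held 12 of the 16 WT reads, the value was -6.57, and the call held. On log2(TPM + 0.1) with limma, the same difference missed the threshold (-3.94, adjusted p = 0.0142). Against *phyC*-null its log2 fold change was 4.21 (SE 0.85), just short of the threshold (adjusted p = 0.0122, edgeR), though the ranges did not overlap. Without *phyC*-null replicate 4 it was 7.07 and passed (adjusted p = 0.000524, edgeR). DESeq2 also called it (4.32, adjusted p = 0.00351). Between WT and *phyC*-null the level was not distinguishable at this depth (-0.82, SE 1.16, adjusted p = 0.763, edgeR), and the sign turned without *phyC*-null replicate 4 (2.001).

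*GA20ox1* gave most of the WT transcripts of the 6 GA 20-oxidase genes that the study's tables annotate. GA 20-oxidase genes without such an annotation were not looked for. *GA20ox1* did not pass the test in any comparison. WT replicates 1 to 4 had 17.3, 14.7, 15.6 and 30.4 TPM. The *phyB*-null libraries had 17.0, 20.3, 18.6 and 21.5 TPM, and the *phyC*-null libraries 25.9, 14.8, 11.7 and 54.4 TPM. The ranges overlapped in each comparison, and the spread was smallest in *phyB*-null (coefficient of variation 10.2%, against 37.5% in WT and 73.0% in *phyC*-null). Log2 fold changes were -0.09 (SE 0.24) for WT over *phyB*-null, -0.45 (SE 0.38) for WT over *phyC*-null and -0.35 (SE 0.34) for *phyB*-null over *phyC*-null. The adjusted p-values were above the threshold (adjusted p = 0.844, 0.587 and 0.586, edgeR). Its direction was not settled, since the WT and *phyB*-null difference turned to 0.06 without WT replicate 2, and leaving out *phyC*-null replicate 4 turned the other values to 0.08 and 0.18.

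*GA20ox-A4* differed from its B genome counterpart in that it was readily detected in every library. WT replicates 1 to 4 had 2.13, 1.10, 0.831 and 3.96 TPM, and the *phyB*-null libraries 0.863, 2.32, 4.36 and 2.71 TPM. The *phyC*-null libraries had 6.47, 3.52, 2.72 and 38.0 TPM. The WT and *phyB*-null ranges overlapped, and the 4 *phyC*-null libraries lay above WT replicates 1 to 3, with replicate 4 at 5.86 times the next library of its genotype. The WT over *phyB*-null value was -0.45 (SE 0.52, adjusted p = 0.589, edgeR). WT over *phyC*-null gave -2.60 (SE 0.78), a mean 6.07-fold higher in the mutant that did not pass (adjusted p = 0.110, edgeR). The value fell to -1.14 without *phyC*-null replicate 4 and was -1.79 without replicate 4 of both genotypes (adjusted p = 0.0418, edgeR), a setting chosen after the values were seen. For *phyB*-null over *phyC*-null it was -2.13 (SE 0.76, adjusted p = 0.117, edgeR), or -0.67 without *phyC*-null replicate 4.

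In all, 2 of the 4 genes passed between WT and *phyB*-null, both higher in the mutant, where 11.9% of all genes tested passed and 5.97% did so in that direction. The study had already reported *GA20ox-B2* and *GA20ox-B4* as higher in *phyB*-null than in the other genotypes, from these libraries. Counts of members in the comparisons with *phyB*-null are therefore not independent evidence. Ranges that did not overlap, with *phyB*-null above WT, were seen for these 2 genes and for 12.3% of all genes. None passed between WT and *phyC*-null (edgeR), where 0.796% of all genes did. At an unadjusted p below 0.05, *GA20ox-B2* and *GA20ox-A4* passed there, as did 16.6% of all genes, while limma called none of the 4 and DESeq2 none of the 3 for which it gave an adjusted p (all but *GA20ox-A4*). With a block for the replicate number, which did not pair the samples, *GA20ox-A4* passed there (-2.19, adjusted p = 0.00106, edgeR). Between the mutants 1 passed, *GA20ox-B2*, against 3.41% of all genes and 1.4% in its direction, while ranges that did not overlap with *phyB*-null above were seen for *GA20ox-B2* and *GA20ox-B4* and for 7.29% of all genes. Median log2 fold changes of the 4 genes were -2.75, -1.25 and 1.93 in the 3 comparisons, and those of all genes -0.0026, -0.06 and -0.04. Without *phyC*-null replicate 4, the median of the 4 genes was -0.37 for WT over *phyC*-null and 3.13 for *phyB*-null over *phyC*-null.

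**Figure D2:**
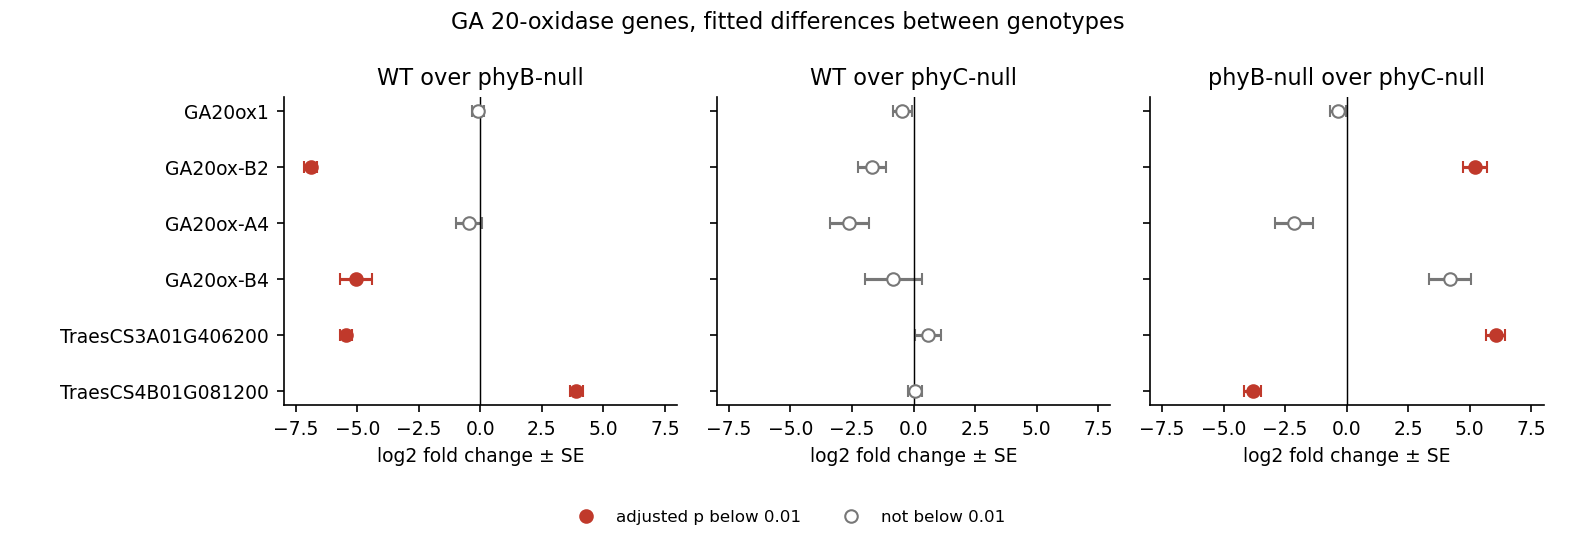
Log2 fold change with its standard error (edgeR) for the 4 genes and for both other genes annotated as GA 20-oxidase, in the 3 comparisons. Filled points have an adjusted p below 0.01. *GA20ox-B2* is at -6.90 for WT over *phyB*-null and 5.22 for *phyB*-null over *phyC*-null, and no gene has a filled point for WT over *phyC*-null.

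Both other GA 20-oxidase genes that the study's tables annotate differed between WT and *phyB*-null, in opposite directions. Those tables hold many genes chosen for differing in these libraries, so that both differed is not independent evidence. TraesCS3A01G406200 had 0.170 to 0.338 TPM in WT, 8.21 to 12.04 TPM in *phyB*-null and 0.0402 to 0.349 TPM in *phyC*-null. Its *phyB*-null level exceeded WT 44.5-fold (log2 fold change -5.48, SE 0.25, adjusted p = 5.58e-08, edgeR). TraesCS4B01G081200 went the other way, with 5.04 to 9.45 TPM in WT, 0.288 to 0.607 TPM in *phyB*-null and 4.01 to 7.61 TPM in *phyC*-null. WT exceeded *phyB*-null 14.9-fold (3.90, SE 0.25, adjusted p = 1.02e-06, edgeR). Neither passed between WT and *phyC*-null (adjusted p = 0.615 and 0.935, edgeR).

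The summed level of the 4 members ran from 16.0 to 35.0 TPM among WT libraries and from 44.9 to 61.7 TPM among *phyB*-null libraries. In *phyC*-null it was 32.8, 18.7, 14.9 and 95.1 TPM in replicates 1 to 4. *GA20ox1* made up 86.8% to 93.5% of this sum in WT and 32.9% to 37.8% in *phyB*-null, where *GA20ox-B2* gave 49.8% to 57.5%. In *phyC*-null, *GA20ox1* gave 57.2% to 79.0% and *GA20ox-A4* 18.3% to 39.9%, against 4.98% to 11.3% for *GA20ox-A4* in WT. The make-up of this sum thus differed in kind, with *GA20ox-B2* leading in *phyB*-null alone and *GA20ox1* leading elsewhere. These values are given without a test.

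**Figure D3:**
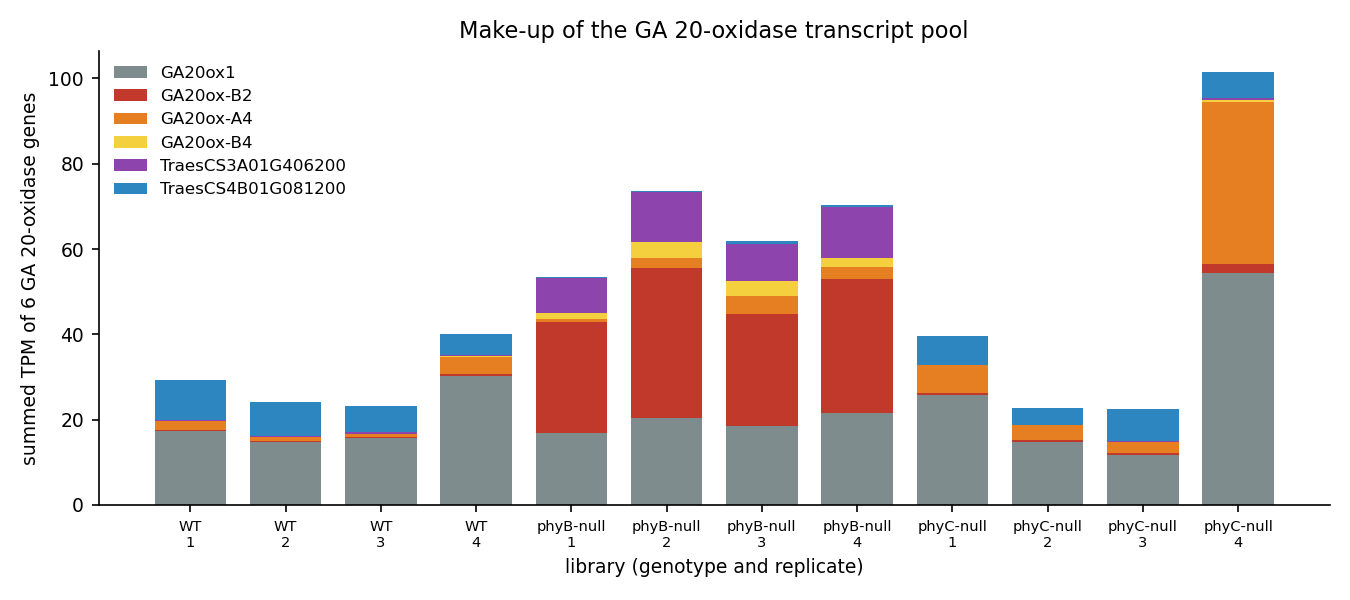
Summed TPM of the 6 GA 20-oxidase genes in each library, stacked by gene. *GA20ox-B2* is the largest segment in the 4 *phyB*-null libraries, *GA20ox1* is the largest in the WT and *phyC*-null libraries, and *phyC*-null replicate 4 has the tallest bar, at 101 TPM.

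*GA20ox-A4* and *GA20ox-B4*, the A and B genome copies by their names, differed in their balance between genotypes. The log2 ratio of *GA20ox-A4* to *GA20ox-B4* reads, with 1 added to each count, was 5.49, 4.55, 3.77 and 3.87 in WT replicates 1 to 4. It was -0.58, -0.78, 0.28 and 0.38 in *phyB*-null and 7.35, 6.42, 6.52 and 5.97 in *phyC*-null. The 3 genotypes did not overlap, with means of 4.42 ± 0.79, -0.17 ± 0.59 and 6.57 ± 0.58 (SD, n = 4). Both copies thus had a like number of reads in *phyB*-null, whereas nearly all reads came from the A copy elsewhere.

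Each of the 3 differences in this ratio had p = 0.0286 in an exact two-sided permutation test over libraries, the smallest that 4 against 4 allows, and 0.0343 after adjustment over 6 ratio tests. Since *GA20ox-B4* had 1 or 2 reads in 6 of the 8 WT and *phyC*-null libraries, the ratio there follows the *GA20ox-A4* count. The differences were 4.60 for WT minus *phyB*-null, -2.14 for WT minus *phyC*-null and -6.74 for *phyB*-null minus *phyC*-null.

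*GA20ox-B2* was set beside TraesCS3A01G406200 in the same way, as each precedes a PISTILLATA-like gene by 2 tested genes in identifier order on chromosomes 3B and 3A. Their log2 ratio, TraesCS3A01G406200 to *GA20ox-B2*, was 0.13, 0.26, 0.66 and -1.14 in WT replicates 1 to 4. It was -1.58, -1.54, -1.52 and -1.32 in *phyB*-null and -1.52, -1.39, -3.04 and -2.47 in *phyC*-null. In WT the pair had about equal reads except in replicate 4, and in both mutants the B genome gene had more in every library. Outside *phyB*-null these ratios rest on few reads, with 9 to 21 per gene in WT and 3 to 21 for TraesCS3A01G406200 in *phyC*-null. The difference of WT from *phyB*-null was 1.47 and that from *phyC*-null 2.09, each with p = 0.0286 and 0.0343 after adjustment (exact permutation test). The mutants overlapped (difference 0.62, exact permutation p = 0.286, also after adjustment).

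**Figure D4:**
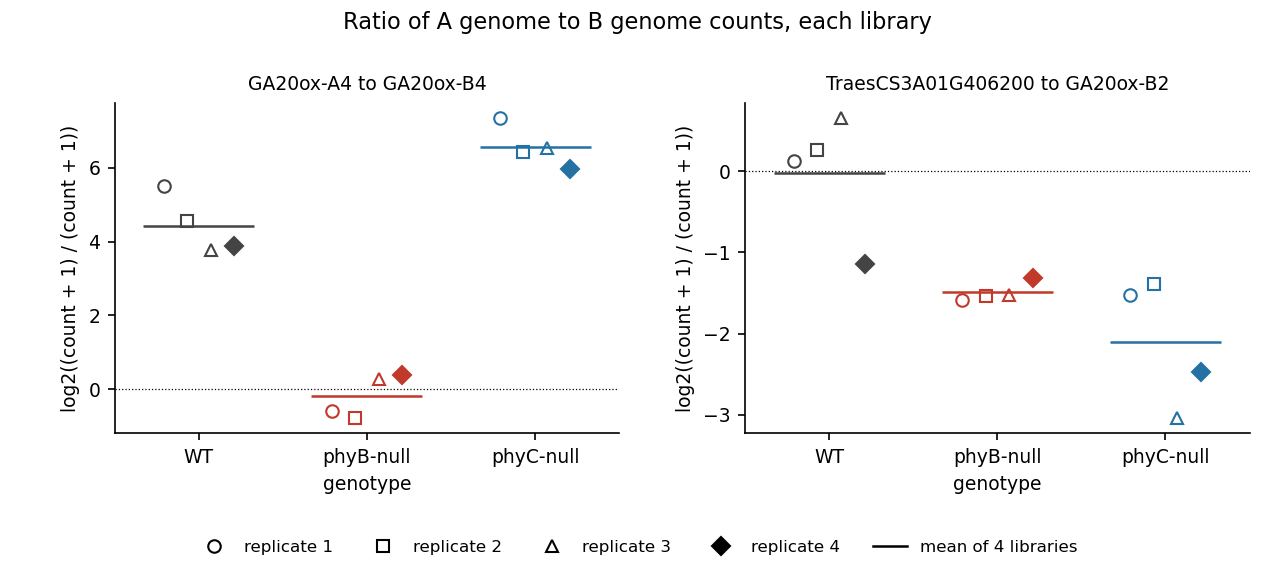
Log2 ratio of A genome to B genome reads, with 1 added to each count, in each library for *GA20ox-A4* to *GA20ox-B4* (left) and TraesCS3A01G406200 to *GA20ox-B2* (right). Lines are means of 4 libraries. On the left the genotypes have means of 4.42, -0.17 and 6.57 with no overlap, and on the right WT replicate 4, at -1.14, lies nearest to the mutants.

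Replicate 4 of WT and of *phyC*-null stood apart for these genes, a pattern that was chosen after the values were seen. In TPM, all 4 members were highest in replicate 4 in both genotypes, at 1.75 to 6.05 times the next library in WT and 2.11 to 28.5 times in *phyC*-null. In CPM, all 4 were also at least 1.5-fold above the next library in both. Of 36749 genes that averaged 1 CPM or more, 1.86% were at least 1.5-fold above the next library in WT replicate 4, counted in CPM. The share was 1.4% for *phyC*-null replicate 4 and 0.114% for both at once. In *phyB*-null, replicate 4 was highest in TPM only for *GA20ox1*, at 1.06 times the next library. In CPM, replicate 2 was higher for that gene (23.8 against 20.9 in replicate 4). These libraries were of usual size, at 44157074 and 49715680 reads. Their summed green leaf markers were 16333 and 10174 TPM, the first being the highest of WT, and their floral MADS sums of 13.96 and 9.33 TPM were within the range of their genotypes. Their *knotted-1-like 1* sums were 0.587 and 0.554 TPM, the first again being the highest of WT. The part of these values in the pattern was not tested. Libraries were run on 2 lanes with 2 replicates of each genotype per lane, and the lane of each replicate is not given in the sources used here.

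The patterns most like each member over the 12 libraries were sought by Pearson's r of log2 CPM among the 36749 genes that averaged 1 CPM or more. These are descriptions, as the libraries share 3 genotypes. *GA20ox-B2* was nearest to TraesCS2B01G354600 (r = 0.99), which has no annotation in the tables and had means of 0.0934, 49.5 and 0.306 TPM in WT, *phyB*-null and *phyC*-null. Next were a leucine-rich repeat protein kinase gene (TraesCS4A01G283600, r = 0.99) and a sulfotransferase gene (TraesCS2B01G068800, r = 0.99). *GA20ox-B4* was nearest to TraesCS4A01G262900, annotated as a phytochrome (r = 0.98), whose means were 2.26, 5.30 and 2.29 TPM. A 2-isopropylmalate synthase gene followed (TraesCS3A01G185500, r = 0.97), then TraesCS5B01G092900 (r = 0.97). *GA20ox-A4* was nearest to a B-box zinc finger gene (TraesCS3B01G156900, r = 0.93), then to TraesCS4A01G096400 (r = 0.93) and TraesCS7B01G600100LC (r = 0.91). *GA20ox1* was nearest to TraesCS3A01G513700 (r = 0.90), TraesCS1B01G222900LC, annotated as cytochrome c oxidase subunit 3 (r = 0.89), and TraesCS5B01G560300 (r = 0.88). Among the members, r was 0.95 for *GA20ox-B2* with *GA20ox-B4* and 0.83 for *GA20ox1* with *GA20ox-A4*, while *GA20ox-A4* and *GA20ox-B4* had only 0.14.

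Genes next to the members in identifier order were called at a share close to that of all genes, with 5 of 40 (12.5%) between WT and *phyB*-null against 11.9% of all genes. Of the 10 nearest tested high confidence genes, 5 on each side, 1 was called higher in *phyB*-null than in WT beside *GA20ox1*, *GA20ox-B2* and *GA20ox-B4* each. Beside *GA20ox-A4*, 1 was higher in *phyB*-null and 1 lower. The gene directly after *GA20ox-B4*, TraesCS1B01G274300, was the one called there (log2 fold change -3.01, adjusted p = 0.00155, edgeR). By the same edgeR test, none of these neighbours was called in the comparisons with *phyC*-null.

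The GA 2-oxidase genes, which act against GA accumulation, also differed between WT and *phyB*-null, 6 of them in the direction of *GA20ox-B2* and *GA20ox-B4*. The list of 16 other GA genes came from the study's own tables of genes, many of them chosen there for differing in these libraries, so its counts are not independent evidence. Of 7 GA 2-oxidase genes, 6 passed as higher and 1 as lower in *phyB*-null than in WT. Of all genes, 11.9% passed there and 5.97% were higher in *phyB*-null. The median log2 fold change of the 7 was -6.13, also with *GA2ox-A11* at its bound. That median is the fitted value of *GA2ox-B11*, which had only 3 reads in WT (ratio 80.7, 95% counting interval 27.3 to 394). *GA2ox-B4* averaged 0.203 TPM in WT against 8.87 TPM in *phyB*-null (-5.50, SE 0.30, adjusted p = 2.29e-07, edgeR). *GA2ox-A6* had only 2 reads in WT, so its ratio of 759.5 has a 95% counting interval of 209.9 to 6278. *GA2ox-A11* had no read in WT and its *phyB*-null level was higher by at least 92.8-fold, set against 3 reads over the 4 WT libraries. TraesCS3A01G133400 was the gene that was lower in *phyB*-null (3.43, SE 0.69, adjusted p = 0.00360, edgeR), but leaving out WT replicate 2 (3.35), WT replicate 3 (3.33) or *phyB*-null replicate 3 (3.03) ended that call, as did the replicate block (3.50) and limma on log2(TPM + 0.1) (2.18).

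In *phyC*-null, 1 of these 7 genes passed against WT, where 0.796% of all genes did. *GA2ox-A4* had 0.170 to 0.386 TPM in WT, 5.47 to 7.10 TPM in *phyB*-null and 1.60 to 3.36 TPM in *phyC*-null, and the 3 genotypes did not overlap. The *phyC*-null level exceeded WT 8.84-fold (-3.14, SE 0.40, adjusted p = 0.00165, edgeR). That call was lost without WT replicate 1 (-3.17, adjusted p = 0.0103, edgeR) and with limma on log2(TPM + 0.1) (-2.59, adjusted p = 0.0524). *GA2ox-B4*, with 0.0843 to 0.319 TPM in WT and 0.8001 to 1.79 TPM in *phyC*-null, was just short of the threshold (-2.82, SE 0.49, adjusted p = 0.0115, edgeR), and passed under 8 alternatives, among them DESeq2 (adjusted p = 5.96e-06) and a threshold of 0.05.

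Genes of the first steps of GA synthesis and of GA signalling were also read from the list. Copalyl diphosphate synthase and kaurene synthase form the diterpene skeleton. Of their 3 genes, 1 passed between WT and *phyB*-null, as did 11.9% of all genes. This was the kaurene synthase gene TraesCS2A01G425600, at 1.79 to 5.76 TPM in WT against 0.577 to 1.5 TPM in *phyB*-null (1.73, SE 0.32, adjusted p = 0.00230, edgeR). It was lost with limma on log2(TPM + 0.1) (1.71, adjusted p = 0.141) and on filtered log2(TPM + 1) (1.18, adjusted p = 0.0126). Both genes annotated as DELLA protein GAI stood below 1 TPM on average in each genotype and did not pass. DELLA genes without such an annotation in the study's tables were not looked for, so these values do not describe DELLA transcripts as a whole. The paired chitin-inducible gibberellin-responsive genes TraesCS2A01G189600 and TraesCS2B01G217500 were lower in *phyB*-null than in WT, 1.99-fold (0.99, SE 0.09) and 1.82-fold (0.86, SE 0.09), with adjusted p = 1.19e-05 and 4.92e-05 (edgeR). None of these passed between WT and *phyC*-null, where 0.796% of all genes did.

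**Figure D5:**
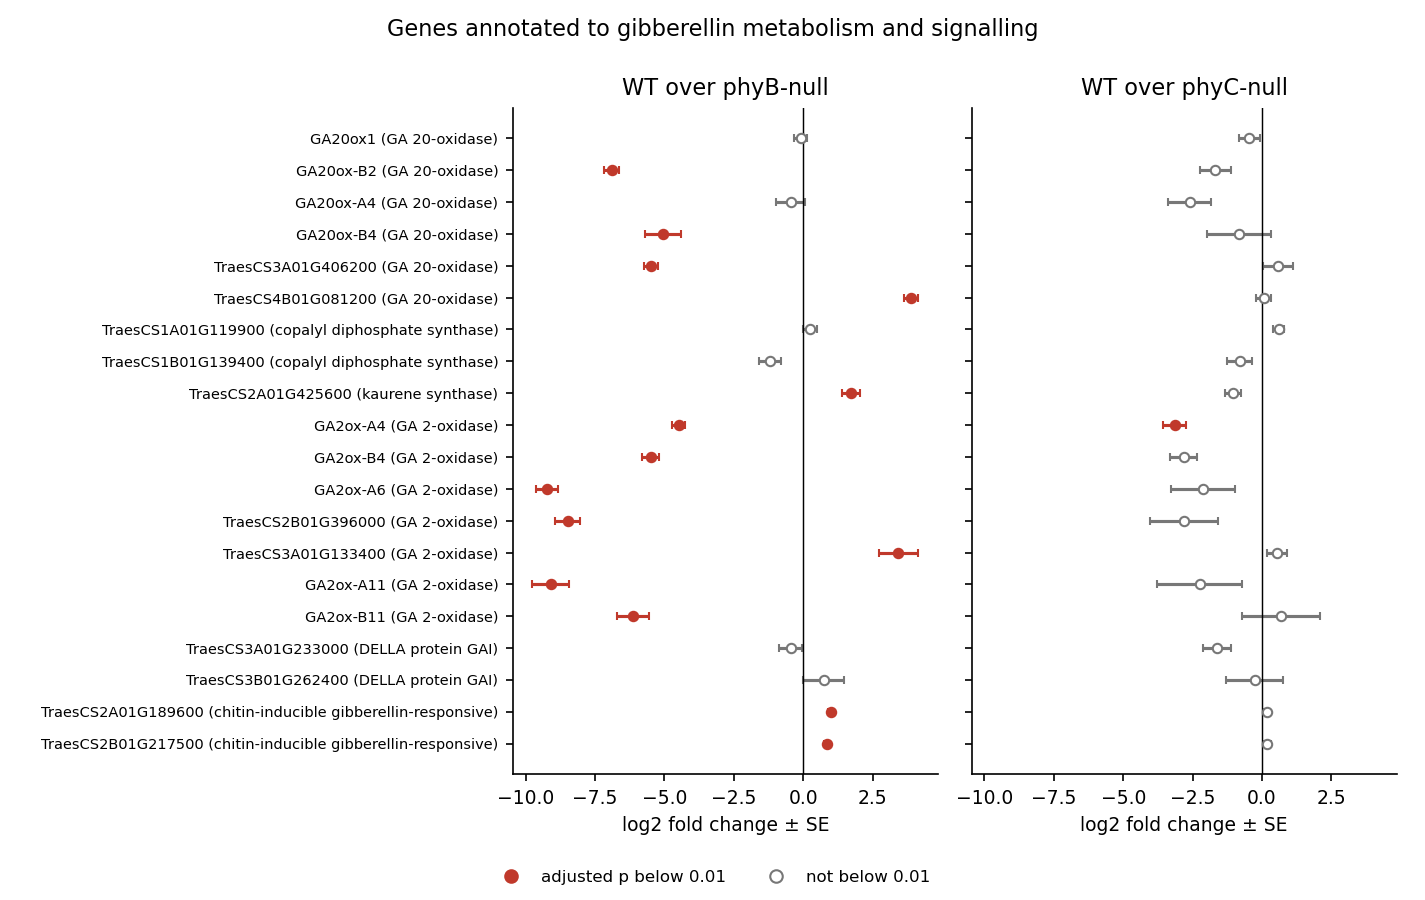
Log2 fold change with its standard error (edgeR) of the 20 genes annotated to GA metabolism or signalling, for WT over *phyB*-null (left) and WT over *phyC*-null (right). Filled points have an adjusted p below 0.01, and for genes with 3 reads or fewer in a genotype the fitted position depends on the prior count. On the left, *GA20ox-B2*, *GA20ox-B4* and 6 GA 2-oxidase genes are filled and below 0, while on the right only *GA2ox-A4* is filled, at -3.14.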

How the data were processed

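Leaf RNA from 12 libraries was sequenced as 100 bp single reads after TruSeq preparation. According to the methods, the authors aligned trimmed reads by GSNAP to the IWGSC RefSeq v1.0 assembly. Reads with a unique position were then assigned by htseq-count to its gene models of either confidence class (strand setting not given in the sources used here). The deposited counts are raw values for genes reaching 3 counts in any library. The authors also deposited TPM for 190459 models, whose tool is not given in the sources used here.

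Each pair of genotypes was fitted on its 8 libraries with edgeR 4.0.16 (R 4.3.3, TMM factors, quasi-likelihood test, no covariates) over all 72120 genes, called at a Benjamini-Hochberg adjusted p below 0.01, with the SE derived from the F statistic. CPM are counts scaled by TMM library size, with a prior count of 2 in log2 CPM. Read ratios, with 1 added to each count, were compared by exact permutation. Counting intervals (95%) and the floor of 3 counts, set per genotype, cover counting error only.

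The members, the other GA genes (every gene that the study's tables, as read, annotate with a word of GA metabolism or signalling), the markers and the rules for like and neighbouring genes were chosen with earlier results of these data known. Gene names come from those tables. The alternatives were DESeq2 1.42.0, the study's rule (DESeq2 plus edgeR's exact test), median-of-ratios factors, filterByExpr, one fit of all 12 libraries, a block for the replicate number, only high confidence models, a threshold of 0.05, limma 3.58.1 on log2(TPM + 1), log2(TPM + 0.1) or models with a mean TPM of at least 0.1, and leaving out each library. Scaling by library size alone, and leaving out replicate 4 of both WT and *phyC*-null, were chosen after seeing the data. On simulated counts with 200 changed genes, all averaging at least 1 CPM, edgeR recovered 97%, 88% and 83% of genes changed 4-fold in the simulations of WT with *phyB*-null, of WT with *phyC*-null and of both mutants, and 48%, 22% and 9% of those changed 2-fold. *GA20ox-B2* and *GA20ox-B4* averaged below 1 CPM in WT and in *phyC*-null, so the recovery for that pair of genotypes does not cover them. The study's long day libraries were not analysed here, and sequences and coordinates were not used here.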

Additional observations from a re-analysis of the deposited data

Results flagged for a closer look

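A sample far from the others of its genotype was found in 6 of 18 groups of 4 libraries, by Dixon's test on TPM at the 95% level. For normally distributed values chance gives about 1 in 20. Whether TPM of these genes meets that was not tested, and results on a log scale are not given here. The highest library was replicate 4 in each. In WT these were *GA20ox1* (30.4 TPM), *GA20ox-B2* (0.417 TPM) and *GA20ox-B4* (0.244 TPM). In *phyC*-null they were *GA20ox-B2* (2.11 TPM), *GA20ox-A4* (38.0 TPM) and *GA20ox-B4* (0.570 TPM). The groups tested were the 6 GA 20-oxidase genes in the 3 genotypes, and these genes are not independent of each other.

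Between the *phyB*-null and *phyC*-null lines, 3 GA 20-oxidase genes differed in the direct test of *phyB*-null over *phyC*-null (edgeR's quasi-likelihood test). The log2 fold change was 5.22 for *GA20ox-B2* (adjusted p = 0.000144), 6.06 for TraesCS3A01G406200 (adjusted p = 1.40e-05) and -3.82 for TraesCS4B01G081200 (adjusted p = 0.000127). All 4 libraries of one mutant were above all 4 of the other for each of these genes. Of all 72120 genes, 3.41% passed between the mutants, 1008 of them higher in *phyB*-null and 1454 higher in *phyC*-null. Ranges without overlap and with *phyB*-null above were seen for 7.29%, the direction of *GA20ox-B2* and TraesCS3A01G406200. The share without overlap in the direction of TraesCS4B01G081200, higher in *phyC*-null, is not given here. TraesCS3A01G406200 and TraesCS4B01G081200 came from the study's own tables, where many genes were chosen for differing in these libraries.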

How the results depend on the processing

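The call of *GA20ox-B2* between WT and *phyB*-null held under the 20 alternatives run (log2 fold change -7.25 to -4.59). *GA20ox-B4* there was lost with limma on log2(TPM + 0.1), at -3.94, leaving 1 member called, and with limma on the same scale *GA20ox-B2* was lost between the mutants (5.31), leaving 0. *GA20ox-B4* between the mutants passed with DESeq2 (4.32), under the joint rule of the study (4.27), with all libraries in one fit (4.20), at a threshold of 0.05 (4.21) and with limma on log2(TPM + 1) with or without the filter (1.62), giving 2 members called. Leaving out 1 library at a time gave 3.83 to 7.07, with 1 to 2 members called. The sign of *GA20ox1* turned for WT over *phyB*-null (-0.44 to 0.0584 over left-out libraries), WT over *phyC*-null (-0.81 to 0.0757) and the mutants (-0.56 to 0.18), and that of *GA20ox-B4* for WT over *phyC*-null (-2.35 to 2.001, and 0.47 without both replicate 4 libraries). Among other GA genes, without a call for WT over *phyC*-null, the sign turned over left-out libraries for TraesCS4B01G081200 (-0.12 to 0.41), *GA2ox-B11* (-0.27 to 2.87) and TraesCS3B01G262400 (-0.68 to 1.01, and for the mutants -1.61 to 0.27). TraesCS3B01G262400 also turned with limma on log2(TPM + 1), at 0.0062, on log2(TPM + 0.1), at 0.15, and with the replicate block, at 0.37. The causes of these changes were not tested.

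The replicate numbers did not pair the samples, as same-numbered libraries had correlations of -0.53 to 0.55 in their deviations from group means, and 6 of 24 matched best with their own number. With the replicate block, *GA20ox-A4* passed for WT over *phyC*-null (-2.19, adjusted p = 0.00106, edgeR; range over its alternatives 0.00106 to 0.439), so that 1 member was called, and no other member's call changed. Counts of all genes called ranged over the alternatives from 1703 to 15463 (8595 as reported), 133 to 2468 (574) and 295 to 6248 (2462). Depth limits *GA20ox-B4* in WT and *phyC*-null, where most libraries had 1 or 2 reads. DESeq2 gave no adjusted p for *GA20ox-A4* against *phyC*-null, and filterByExpr left out *GA20ox-B4* for WT and *phyC*-null.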
